A study of Homo sapiens with 8 samples.

Results

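The data compare PC9 cells that carry an EN2 retrovirus with PC9 cells that carry the control retrovirus, on 4 of the 8 arrays of the series and across 18244 genes. PC9 is a human lung adenocarcinoma line that depends on mutant EGFR. The EN2 group (2 arrays) was infected with virus encoding EN2, and the vector group (2 arrays) with the Neo control virus. Both viruses were packaged in 293FT cells, and both infected populations were then selected as stable cells with the drug that the labels spell genemycin, so the vector cells share the infection and the selection. The other 4 arrays hold A549 cells, another lung adenocarcinoma line, with the same EN2 and Neo viruses and 2 arrays each. PC9 grew in Dulbecco's modified Eagle medium and A549 in F-12K, both with fetal bovine serum. The labels give neither the promoter that drove EN2, nor whether the stable cells were pools or clones, nor whether replicates came from separate cultures. The p-values below therefore measure only the spread between these arrays, which may be technical.

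EN2 (engrailed homeobox 2) is a transcription factor whose homeodomain binds DNA at sites built around TAAT. It is known as a patterning gene of the midbrain and hindbrain. Engrailed proteins usually repress their targets through Groucho/TLE corepressors, and they bind DNA together with TALE homeodomain cofactors of the PBX and MEIS families. The comparison asks which transcripts differ in these lung cancer cells when EN2 is supplied from a virus.

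Total RNA was measured on single-colour arrays, and the values are log2 intensities. One probe set, the brightest over the 8 arrays, stands for each gene. The arrays of a group correlated at r = 0.998 for EN2 and r = 0.998 for vector across genes, and EN2 and vector arrays at 0.997 to 0.998. The median over the 18244 genes of the SD within a group was 0.082. All 11 markers of lung adenocarcinoma epithelium were above the spike-in background, which is the 95th percentile of 100 probe sets for external control RNAs (3.94 in PC9). COL3A1, DCN, LUM and FAP of the fibroblast list, PTPRC and LYZ of the blood list, TEK of the endothelial list, and CHGA, INSM1 and GRP of the neuroendocrine list were below it in all 4 arrays. On each array, however, 4 to 6 of 10 fibroblast, 8 of 9 endothelial, 7 of 9 blood and 3 of 6 neuroendocrine markers were above it. Over all genes 86.5% had a group mean above it, so passing this background does not by itself tell cell types apart. No gene of these 5 marker lists was called. The summed log2 level of the 9 blood markers measured was 46.9 to 47.1 on the EN2 arrays and 46.0 to 46.6 on the vector arrays, while for the other 4 lists the ranges of the groups met. In bulk RNA, fewer cells of one kind and less RNA per cell cannot be told apart.

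EN2 itself read 6.24 and 6.39 on the EN2 arrays and 5.86 and 5.78 on the vector arrays. The 2 groups did not overlap, and the difference was 0.50 ± 0.091 (SE), which is 1.41-fold. It did not pass the threshold of 0.05 (limma adjusted p = 0.0801). A dimmer EN2 probe set read 5.19 and 5.20 with EN2 and 5.29 and 4.78 with vector, so there the groups overlapped. In A549 the same brighter probe set was higher by 1.15 (limma adjusted p = 0.00028), and the difference between the lines was −0.65 (limma adjusted p = 0.0638). Which part of the EN2 transcript either probe set reads, and whether it lies inside the viral insert, was not tested. The supplied gene thus gives an uncalled difference in the direction of the labels, and every direction below is that of the libraries labelled EN2 against those labelled vector.

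With EN2, 27 genes rose (0.148% of the genes tested) and 40 fell (0.219%) at a limma adjusted p below 0.05, together 0.367%. All 67 have EN2 arrays on one side of the vector arrays with no overlap. Over all genes that separation occurred in 3225 genes upward (17.7%) and 2771 downward (15.2%), so it marks a gene only weakly by itself. The fold among the risen genes ranged from 1.31 to 2.81 (PLCB1, below background in the vector arrays) with a median of 1.79, and among the fallen genes from 1.35 to 4.59 with a median of 1.64. At least 2-fold changes were found in 8 risen and 9 fallen genes. The median change over all genes was 0.0040, and the 5th and 95th percentiles were −0.19 and 0.20. With 2 arrays on each side, the smallest p that exact permutation allows is 0.333. Each call therefore rests on the spread that limma shares between genes. That spread is also estimated over all 8 arrays, those of A549 included. With the PC9 arrays alone, 20 of the 67 genes kept their call.

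**Figure D1:**
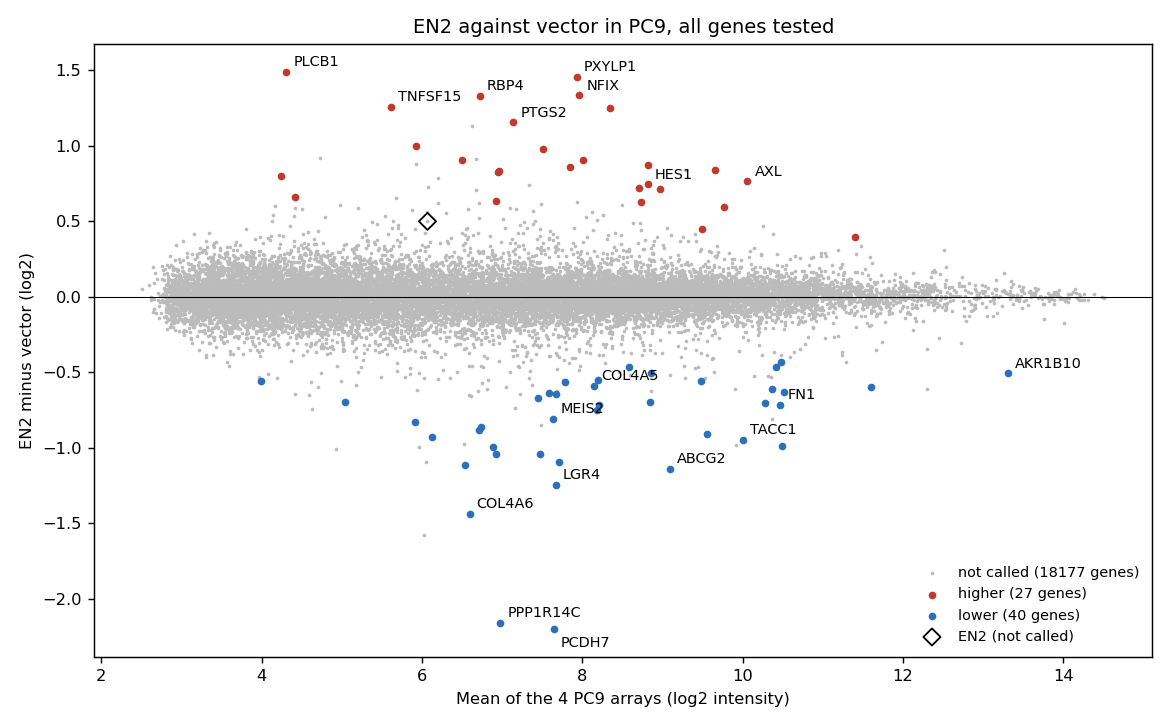
Change with EN2 in PC9 (EN2 minus vector, log2, vertical axis) against the mean log2 intensity of the 4 PC9 arrays (horizontal axis) for 18244 genes. Red points are the 27 genes that rose, blue points the 40 that fell, grey points the rest, and the open diamond is EN2; PCDH7 and PPP1R14C lie apart at the bottom, at −2.20 and −2.16.

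The largest fall was in an adhesion gene of the cell surface. PCDH7 encodes protocadherin 7, a membrane protein of the cadherin superfamily. It read 6.44 and 6.65 on the EN2 arrays and 8.56 and 8.93 on the vector arrays. Both EN2 values lay far below both vector values, and PCDH7 fell by 2.20 ± 0.13 (SE), or 4.59-fold (limma adjusted p = 0.000112). Each of its 5 probe sets fell, with changes from −3.32 to −1.28. The probe set brightest in the PC9 vector arrays read 6.07 and 6.72 with EN2 and 9.48 and 9.95 with vector, the fall of 3.32. PCDH7 kept its call with each of the 4 arrays left out in turn. It was the 1 called gene among 11 non-clustered protocadherins, of which 6 were above background, and the median change of that list was −0.045 against 0.0040 over all genes. PCDH1 changed by −0.13 and PCDH9 by −0.16, neither called.

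Other surface and junction genes fell by less. TSPAN3, a tetraspanin, read 9.02 and 9.17 with EN2 and 9.97 and 10.04 with vector, a change of −0.91 ± 0.072 (limma adjusted p = 0.00101). TSPAN3 kept its call with each of the 4 arrays left out in turn. TENM3, a teneurin that takes part in contacts between neurons, read 6.24 and 6.31 with EN2 and 7.38 and 6.94 with vector. Its groups stayed apart, although the vector arrays lay farther from each other than the EN2 arrays did, and the change was −0.88 (limma adjusted p = 0.0207). DSC2, a desmosomal cadherin, read 7.81 and 7.90 with EN2 and 8.55 and 8.59 with vector, a change of −0.72 (limma adjusted p = 0.0157). TENM3 lost its call without EN2 replicate 1 (−0.84), EN2 replicate 2 (−0.92) or vector replicate 1 (−0.66), and DSC2 lost its call with each of the 4 arrays left out in turn (change −0.76 to −0.67). DSC2 was the only called gene of 33 epithelial markers, whose median change was −0.023. EHF, an epithelial ETS factor (−0.52), KRT8 (−0.15) and CDH3 (P-cadherin, 0.20), with the next smallest p, were not called. CDH1 (E-cadherin, 0.011), EPCAM (−0.06) and KRT19 (−0.053) were not called either. ADGRL2, an adhesion G protein-coupled receptor, fell by 0.83, and DST, the cytolinker dystonin, by 0.46. KRT13, a keratin of stratified epithelia, read 5.55 and 5.77 with EN2 and 6.47 and 6.71 with vector (change −0.93, limma adjusted p = 0.0198), and its other 2 probe sets changed by −1.24 and −1.66. KRT13 lost its call with each of the 4 arrays left out in turn (change −1.05 to −0.81). Upward, ITGB2, the beta-2 integrin chain, rose by 0.63, MPP1, a membrane scaffold of the MAGUK family, by 0.90, and PLLP (plasmolipin) by 0.87. ITGB2 is abundant in leukocytes; the part of the higher summed blood markers in its rise, and in that of TRBC2, was not tested.

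**Figure D2:**
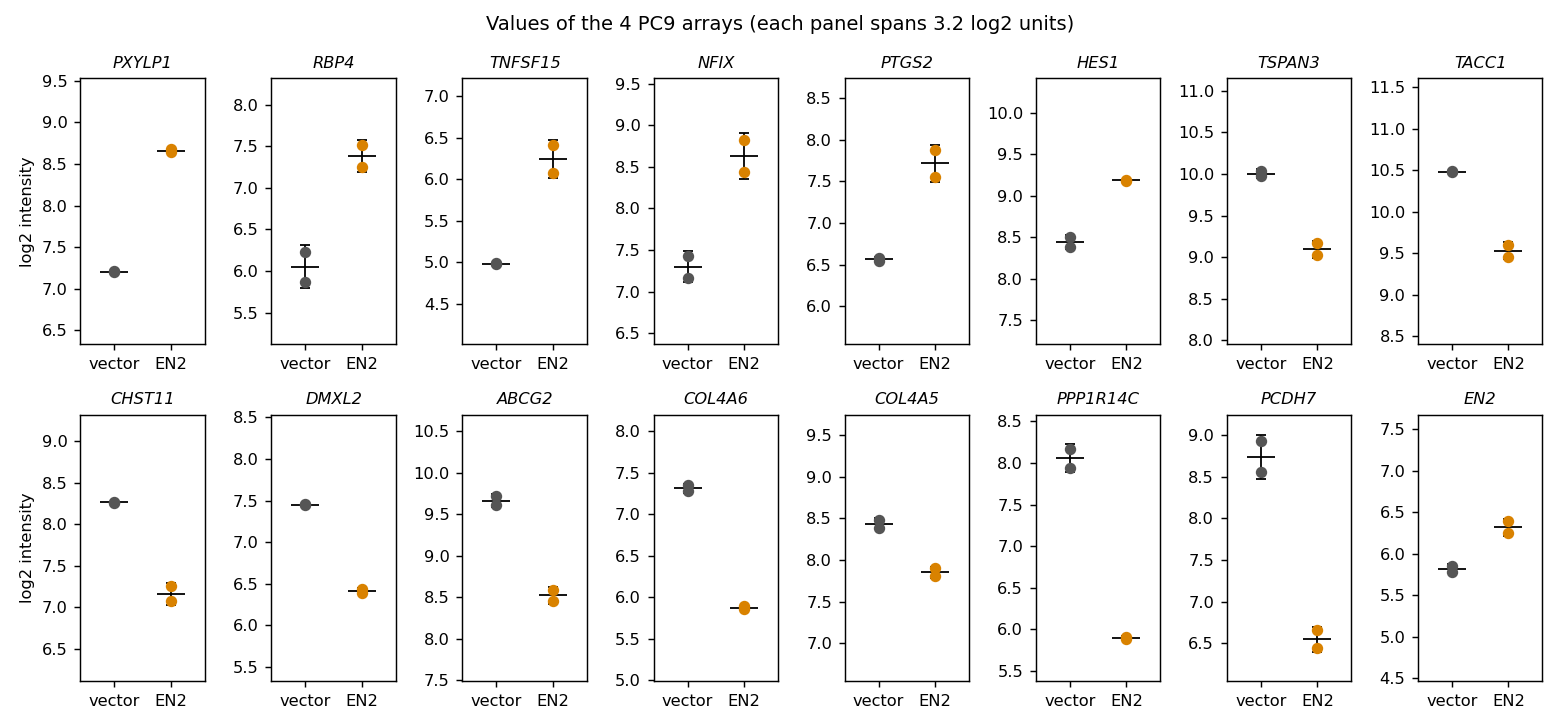
Log2 intensity on each of the 4 PC9 arrays for 16 genes, with the vector arrays in grey and the EN2 arrays in orange; horizontal bars are group means and error bars 1 SD of 2 arrays, and each panel spans the same range. In every panel the 2 groups are apart, by 2.20 in PCDH7 and by 0.50 in EN2, which alone of the 16 was not called.

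Several genes of phosphatase, kinase and phospholipase signalling changed. PPP1R14C encodes KEPI, an inhibitor of protein phosphatase 1 that works once it is phosphorylated. It read 5.91 and 5.88 with EN2 and 7.94 and 8.17 with vector. The EN2 arrays were almost identical and lay about as far below vector as in PCDH7; the change was −2.16 ± 0.11, or 4.47-fold lower (limma adjusted p = 9.02e-05). Its second probe set fell by 2.62, and PPP1R14C kept its call with each of the 4 arrays left out in turn. Among 15 genes of protein phosphatase 1 and its inhibitors no other gene was called (list median 0.0041). The related inhibitors changed by −0.035 (PPP1R14A, below background), −0.026 (PPP1R14B) and −0.057 (PPP1R14D), and the 3 catalytic subunits by 0.0041 to 0.039.

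PRKAR2B, a regulatory subunit of cyclic AMP-dependent protein kinase A, read 8.84 and 9.11 with EN2 and 7.46 and 7.99 with vector. It rose by 1.25 ± 0.16 (limma adjusted p = 0.0105), and its other probe set moved alike. PRKAR2B lost its call without EN2 replicate 1 (1.38) or EN2 replicate 2 (1.12). None of the other 35 genes of the protein kinase A pathway was called, and the list median was 0.034. The sister subunits PRKAR2A and PRKAR1A changed by 0.13 and 0.016, and the kinase inhibitor PKIB by −0.59 (limma adjusted p = 0.363).

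PLCB1, a phospholipase C that G proteins activate, had the largest rise but a low signal. It read 4.73 and 5.38 with EN2 and 3.39 and 3.74 with vector, where both arrays were below the spike-in background, so its fitted change of 1.49 (limma adjusted p = 0.0145) depends on how low values read. Only 1 of its 3 probe sets was higher with EN2, and PLCB1 lost its call without EN2 replicate 2 (1.16), vector replicate 1 (1.31) or vector replicate 2 (1.67). PLCL2, a phospholipase C-like protein without catalytic activity, read 4.52 and 4.76 with EN2 and 3.89 and 3.79 with vector, again below background without EN2 (change 0.80, limma adjusted p = 0.00931). PLCL2 lost its call without EN2 replicate 2 (0.68), vector replicate 1 (0.85) or vector replicate 2 (0.75). These were the 2 called genes of 18 in the phospholipase C and Gq list, which had a median of 0.026.

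Among receptors and their regulators, AXL, a receptor tyrosine kinase, read 10.56 and 10.33 with EN2 and 9.69 and 9.67 with vector. It rose by 0.76 ± 0.084 (limma adjusted p = 0.00513), and AXL lost its call without vector replicate 1 (0.77) or vector replicate 2 (0.75). AXL also stood in the list of YAP/TAZ targets as its only called gene of 22 (list median −0.049), beside CCN1 at 0.10 and CCN2 at −0.65, neither called. LPAR1, a receptor for lysophosphatidic acid, rose by 0.83. RGS7, which speeds the shut-off of G proteins, read 7.15 and 6.75 with EN2 and 8.14 and 7.85 with vector (change −1.04, limma adjusted p = 0.0214), and RGS7 lost its call without EN2 replicate 2 (−0.84), vector replicate 1 (−0.90) or vector replicate 2 (−1.19). ACKR2, a decoy receptor that removes chemokines, fell by 0.86, and SEMA3C, a secreted semaphorin, by 0.75. The other ACKR2 probe set, above background, changed by −0.17 and was not called. In this EGFR-driven line none of 24 EGFR-RAS-MAPK output genes and 14 EGFR family members was called. Over all genes only 0.367% were called, so lists of this size are usually empty. EGFR changed by 0.045. Of the 24 output genes (median 0.087) 3 had an unadjusted limma p below 0.05, against 1232 of 18244 over all genes. Among them DUSP6, a phosphatase of ERK, was at 0.44 (limma adjusted p = 0.378).

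In the extracellular matrix, 2 neighbouring collagen IV genes fell together. Collagen IV forms the network of basement membranes, and COL4A5 and COL4A6 encode the alpha 5 and alpha 6 chains, which assemble in one kind of trimer. COL4A6 read 5.89 and 5.86 with EN2 and 7.35 and 7.28 with vector. All 4 arrays repeated closely, and the change was −1.44 ± 0.079, or 2.71-fold lower (limma adjusted p = 9.02e-05). All 7 COL4A6 probe sets were lower with EN2, with changes from −1.44 to −0.19, and COL4A6 kept its call with each of the 4 arrays left out in turn. COL4A5 read 7.90 and 7.80 with EN2 and 8.39 and 8.49 with vector, a change of −0.59 ± 0.074 (limma adjusted p = 0.0105), and COL4A5 lost its call with each of the 4 arrays left out in turn (change −0.64 to −0.54). COL4A1 changed by −0.36 (limma adjusted p = 0.475), COL4A2 by −0.15 and COL4A3 by −0.064, none called, and the 6 chains had a median of −0.26. The 9 laminin genes measured had a median of 0.092 with none called.

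COL4A5 and COL4A6 are read in opposite directions from a shared start region on the X chromosome. The 250 bases before each start, from RefSeq (GRCh38.p14, each 5′ to 3′ on its own strand), are shown because the pair fell together; capitals mark the 121 bases that both windows cover, on opposite strands. The window of COL4A5 is chrX:108439588-108439837 (plus strand) and that of COL4A6 is chrX:108439459-108439708 (minus strand).
COL4A5: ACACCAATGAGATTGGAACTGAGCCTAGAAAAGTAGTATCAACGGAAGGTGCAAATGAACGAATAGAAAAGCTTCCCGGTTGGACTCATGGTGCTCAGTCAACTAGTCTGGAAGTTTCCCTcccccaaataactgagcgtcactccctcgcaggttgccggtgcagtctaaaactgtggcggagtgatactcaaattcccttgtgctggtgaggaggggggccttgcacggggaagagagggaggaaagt
COL4A6: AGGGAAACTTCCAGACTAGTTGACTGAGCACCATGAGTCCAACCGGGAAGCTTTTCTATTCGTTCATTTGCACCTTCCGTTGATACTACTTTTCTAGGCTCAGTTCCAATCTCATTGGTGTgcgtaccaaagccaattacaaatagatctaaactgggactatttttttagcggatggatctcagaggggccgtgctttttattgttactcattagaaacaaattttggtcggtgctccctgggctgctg
The annotated starts lie 380 bases apart. The shared stretch was the same DNA for a gene that fell by 1.44 and one that fell by 0.59. In A549 COL4A6 was called lower (−0.44), while COL4A5 changed by −0.034 and was not called.

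Other matrix genes moved both ways. FN1 (fibronectin) read 10.29 and 9.94 with EN2 and 10.89 and 10.76 with vector, a change of −0.72 (limma adjusted p = 0.0186), with all 8 probe sets lower; FN1 lost its call without EN2 replicate 2 (−0.54), vector replicate 1 (−0.65) or vector replicate 2 (−0.78). It was the 1 called gene of 24 mesenchymal genes and EMT factors (median 0.027), in which VIM (vimentin) was at 0.026 and CDH2 (N-cadherin) at 0.32, and TNC (tenascin C) at 0.88 was not called (limma adjusted p = 0.268). SPP1 (osteopontin), a secreted phosphoprotein, read 10.01 and 10.12 with EN2 and 10.73 and 10.62 with vector, a change of −0.61 (limma adjusted p = 0.00574), and SPP1 lost its call without EN2 replicate 1 (−0.55) or vector replicate 1 (−0.56). FRAS1, a basement membrane protein, fell by 0.70, and the protease inhibitor TFPI2 by 0.56. THSD7A, a membrane protein with thrombospondin repeats, fell by 0.56 to a level below background. Upward, COL8A1, a short-chain collagen of the vessel wall and cornea, read 6.56 and 6.30 with EN2 and 5.32 and 5.54 with vector (change 1.0, limma adjusted p = 0.0103). Its other 2 probe sets were below background and did not rise, and no other of 25 collagens outside type IV was called (median −0.013). TIMP3, an inhibitor of matrix metalloproteinases, read 10.15 and 9.99 with EN2 and 9.29 and 9.18 with vector (change 0.84, limma adjusted p = 0.00438), and all 3 of its probe sets rose. TIMP3 lost its call without EN2 replicate 1 (0.76) or vector replicate 2 (0.79). FSTL1, a follistatin-like secreted protein, rose by 0.72, P3H2, which hydroxylates prolines of collagen IV among others, by 0.63, and the protease inhibitor SPINK6 by 0.66. The other P3H2 probe set, above background, changed by −0.17, and the P3H2 call was lost with the mean of its probe sets.

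Genes that build sulfated sugar chains included large changes in both directions. PXYLP1 encodes the phosphatase that removes the xylose phosphate from the linker of glycosaminoglycan chains. It read 8.64 and 8.68 with EN2 and 7.21 and 7.20 with vector. Arrays within a group were nearly equal, and PXYLP1 rose by 1.46 ± 0.087, or 2.74-fold (limma adjusted p = 0.000112). All 4 probe sets rose, by 0.94 to 1.46, and PXYLP1 kept its call with each of the 4 arrays left out in turn. CHST11, which adds sulfate to chondroitin, read 7.26 and 7.07 with EN2 and 8.27 and 8.26 with vector, a change of −1.10 ± 0.10 (limma adjusted p = 0.00185). All 3 of its probe sets fell, and CHST11 kept its call with each of the 4 arrays left out in turn. These were the 2 called genes of 38 in glycosaminoglycan synthesis (median 0.012). PAPSS2, which makes the sulfate donor PAPS, read 5.77 and 6.18 with EN2 and 7.07 and 7.11 with vector; the EN2 arrays were wide apart but both below vector (change −1.11, limma adjusted p = 0.0145), and PAPSS2 lost its call without EN2 replicate 1 (−0.91), vector replicate 1 (−1.14) or vector replicate 2 (−1.09).

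**Figure D3:**
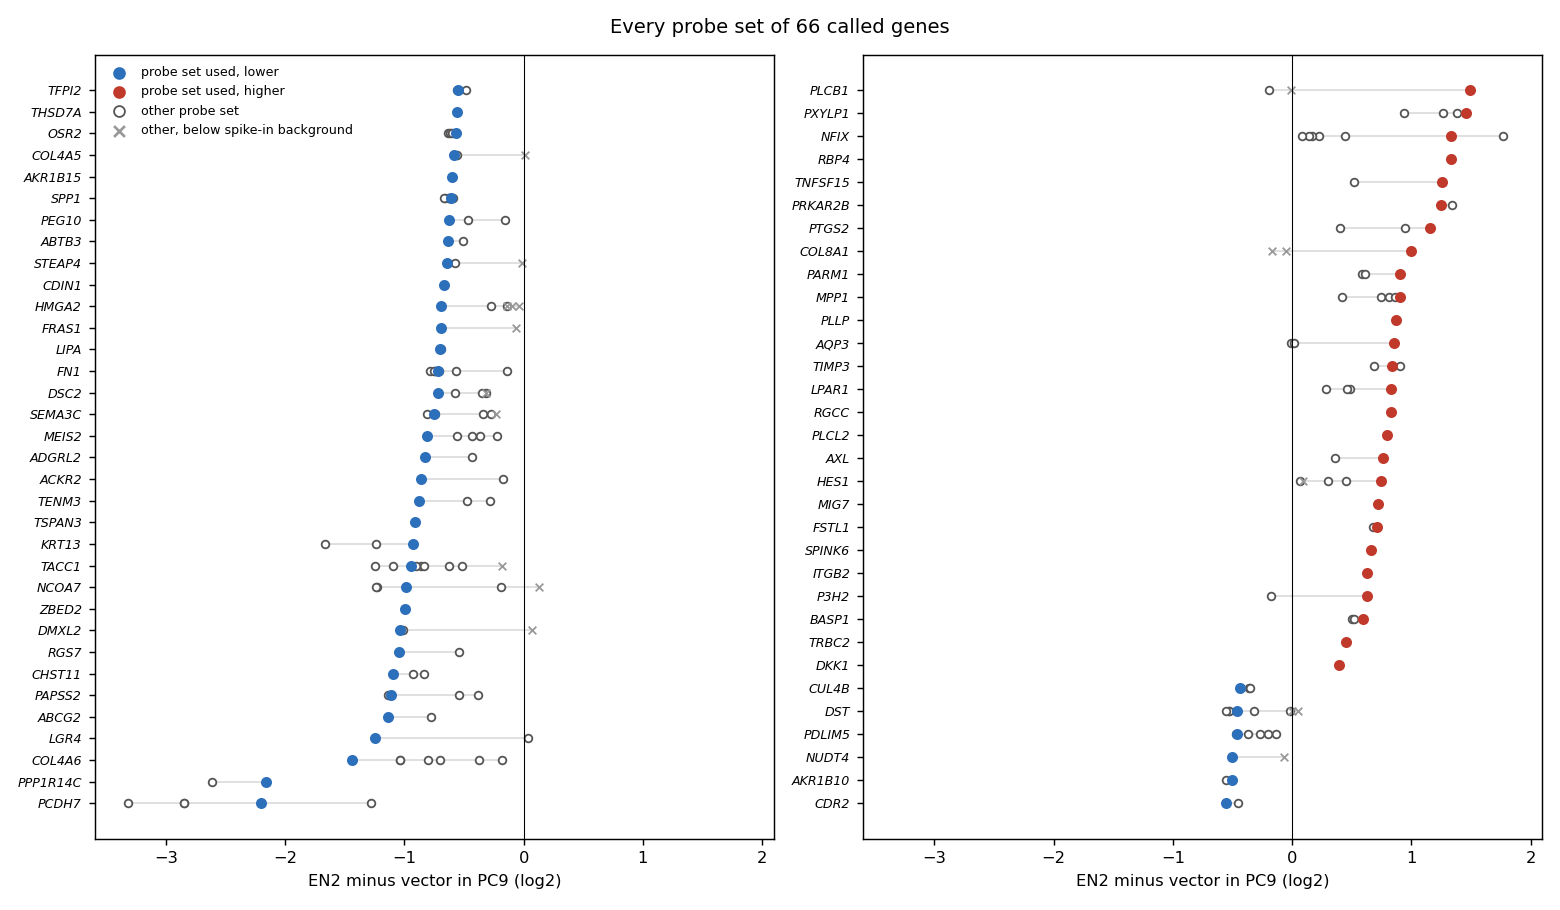
Change with EN2 in PC9 (log2, horizontal axis) of every probe set of 66 called genes; filled points are the probe set that stands for the gene (red higher, blue lower), open circles its other probe sets and crosses those below the spike-in background. All probe sets of PCDH7, PXYLP1 and COL4A6 lie on one side of 0, while those of NFIX spread from 0.087 to 1.77. PLCB1, COL8A1, AQP3, P3H2, LGR4, HMGA2 and ACKR2 are among the genes that rest mainly on 1 probe set.

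Among transcription factors NFIX had the largest rise. It belongs to the nuclear factor I family, which binds DNA as dimers and acts in brain, muscle and lung development. NFIX read 8.83 and 8.43 with EN2 and 7.43 and 7.17 with vector, a change of 1.33 ± 0.14, or 2.52-fold (limma adjusted p = 0.00413). NFIX lost its call without vector replicate 2 (1.2). All 7 NFIX probe sets were higher with EN2, but only 2 passed, at 1.33 and 1.77, while the other 5 changed by 0.087 to 0.45. The other family members stayed near 0, with NFIA at 0.018, NFIB at −0.025 and NFIC at 0.0019. HES1, a repressor induced by Notch, read 9.19 and 9.18 with EN2 and 8.38 and 8.50 with vector (change 0.74, limma adjusted p = 0.0249). All 5 of its probe sets were higher, but only 1 passed, and the probe set brightest in PC9 changed by 0.45 without a call. HES1 lost its call with that probe set and with the mean of its probe sets. It also lost its call with each of the 4 arrays left out in turn (change 0.68 to 0.80). It was the 1 called gene of 30 in the Notch pathway (median −0.0085), in which the ligand JAG1 was at −0.31 and the receptors NOTCH1 and NOTCH2 at −0.082 and 0.0034, none called.

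MEIS2 is a TALE homeodomain protein of the kind that binds DNA with engrailed and HOX partners. It read 7.34 and 7.13 with EN2 and 8.06 and 8.02 with vector, a change of −0.81 ± 0.092 (limma adjusted p = 0.00588). All 5 probe sets were lower, and MEIS2 lost its call without EN2 replicate 2 (−0.70), vector replicate 1 (−0.79) or vector replicate 2 (−0.83). It was the 1 called gene of 16 engrailed genes, cofactors and corepressors (median 0.086), with the corepressor TLE2 at 0.39 and PKNOX1 at 0.29 not called. CDIN1, whose product binds codanin and which lies next to MEIS2 in the order of protein-coding genes, read 7.07 and 7.14 with EN2 and 7.88 and 7.68 with vector (change −0.67, limma adjusted p = 0.0145). HMGA2, an architectural chromatin protein, fell by 0.70 and OSR2, an odd-skipped zinc finger factor, by 0.57. The next brightest HMGA2 probe set, above background, changed by −0.14 and was not called. ZBED2, a zinc finger factor, read 6.14 and 6.63 with EN2 and 7.41 and 7.35 with vector, a change of −1.0 (limma adjusted p = 0.0198), and NCOA7, a nuclear receptor coactivator, read 10.06 and 9.92 and 10.97 and 11.00, a change of −0.99 (limma adjusted p = 0.00438). ZBED2 lost its call without EN2 replicate 1 (−0.75), vector replicate 1 (−0.97) or vector replicate 2 (−1.03), and NCOA7 lost its call without EN2 replicate 2 (−0.92), vector replicate 1 (−1.01) or vector replicate 2 (−0.97). TACC1, a coiled-coil protein of the centrosome, read 9.60 and 9.46 with EN2 and 10.49 and 10.47 with vector. All 9 of its probe sets were lower (change −0.95 ± 0.078, limma adjusted p = 0.00107), and TACC1 kept its call with each of the 4 arrays left out in turn.

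The bases before the starts of the called genes were searched for the homeodomain core TAATTA and for the shorter TAAT, on both strands, in windows from 250 bases before to 50 after each RefSeq start. Every window with the longer core also holds the shorter one. The longer core stood in 1 of 100 windows of the 52 called genes with a window (1%) and in 1699 of 35116 windows of all genes (4.84%). The shorter core stood in 48% of the windows of called genes, 42.1% for risen and 51.6% for fallen genes, and in 50.2% of all windows. Such a match is a description of letters, and binding was not measured here. The 1 window with TAATTA belonged to ABTB3, a BTB-domain protein that read 7.16 and 7.37 with EN2 and 7.91 and 7.89 with vector (change −0.64, limma adjusted p = 0.0323). The 250 bases before its start, chr12:107318184-107318433 on the plus strand, are shown with TAATTA in capitals, at −105 to −100 from the start.
ABTB3: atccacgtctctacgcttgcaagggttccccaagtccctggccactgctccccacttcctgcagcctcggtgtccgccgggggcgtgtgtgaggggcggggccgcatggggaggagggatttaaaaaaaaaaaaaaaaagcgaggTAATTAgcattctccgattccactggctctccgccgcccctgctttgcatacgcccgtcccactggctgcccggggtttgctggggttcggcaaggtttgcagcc

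Secreted ligands and their receptors changed singly. TNFSF15 (TL1A), a cytokine of the TNF superfamily, read 6.41 and 6.08 with EN2 and 4.98 and 4.99 with vector, a change of 1.26 ± 0.12 (limma adjusted p = 0.00245). TNFSF15 kept its call with each of the 4 arrays left out in turn, and it was the 1 called gene of 41 in the TNF superfamily (median −0.016). LGR4, a receptor for R-spondins that strengthens Wnt signalling, read 6.87 and 7.22 with EN2 and 8.35 and 8.23 with vector (change −1.24 ± 0.14, limma adjusted p = 0.00574). Its second probe set did not fall, and LGR4 lost its call without EN2 replicate 1 (−1.07), vector replicate 1 (−1.19) or vector replicate 2 (−1.30). DKK1, a secreted Wnt inhibitor, read 11.56 and 11.63 with EN2 and 11.14 and 11.27 with vector, a small rise of 0.39 (limma adjusted p = 0.0344), and DKK1 lost its call with each of the 4 arrays left out in turn (change 0.33 to 0.46). Of 32 genes of the Wnt and R-spondin pathway no others were called (median −0.0029), among them LGR5 at 0.15.

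Transport and metabolism held several of the remaining calls. ABCG2, the breast cancer resistance protein that exports drugs and urate, read 8.45 and 8.59 with EN2 and 9.71 and 9.61 with vector. It fell by 1.14 ± 0.12, or 2.2-fold (limma adjusted p = 0.00413), and both of its probe sets fell. Its call ended when EN2 replicate 1 was left out (−1.07) or when vector replicate 1 was (−1.09). None of the other 43 ABC transporters was called (list median −0.030), with ABCB1 at −0.063 and ABCC4 at −0.33. RBP4, the carrier of retinol in plasma, read 7.25 and 7.52 with EN2 and 5.87 and 6.23 with vector, a change of 1.33 ± 0.13 (limma adjusted p = 0.00299). RBP4 kept its call with each of the 4 arrays left out in turn, but lost it with the PC9 arrays alone. It was the 1 called gene of 24 in the retinoid pathway (median −0.018). PTGS2 (cyclooxygenase 2), the inducible first enzyme of prostaglandin synthesis, read 7.88 and 7.56 with EN2 and 6.55 and 6.58 with vector, a rise of 1.15 or 2.23-fold (limma adjusted p = 0.0166). All 3 probe sets were higher, but PTGS2 lost its call with each of the 4 arrays left out in turn (change 0.99 to 1.31). No other of 23 prostaglandin genes was called (median −0.022), and PTGR1, which inactivates prostaglandins and leukotrienes, was at −0.35 (limma adjusted p = 0.0965).

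AKR1B10, an aldo-keto reductase that reduces aldehydes and retinal, read 12.95 and 13.17 with EN2 and 13.53 and 13.60 with vector, a change of −0.51 (limma adjusted p = 0.0263), and AKR1B10 lost its call without EN2 replicate 1 (−0.40), vector replicate 1 (−0.54) or vector replicate 2 (−0.47). AKR1B15, its near-identical neighbour, changed by −0.60; the 2 may share probe signal, so its own change is uncertain. AKR1B10 was the 1 called gene of 28 NRF2 targets (median −0.059), with ALDH3A1 at −0.43 not called (limma adjusted p = 0.115). DMXL2, a partner of the proton pump of vesicles, read 6.38 and 6.43 with EN2 and 7.44 and 7.45 with vector, a change of −1.04 ± 0.085 (limma adjusted p = 0.00107), and DMXL2 kept its call with each of the 4 arrays left out in turn. LIPA, the acid lipase of lysosomes, fell by 0.71, STEAP4, a metalloreductase, by 0.64, and NUDT4, which cleaves inositol pyrophosphates, by 0.50. AQP3, a channel for water and glycerol, rose by 0.86 on its brightest probe set, while its other 2 probe sets changed by −0.010 and 0.016.

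The last calls had small changes or little known roles. RGCC, a regulator of the cell cycle, rose by 0.83, PARM1, a mucin-like membrane protein, by 0.91, and BASP1, a membrane-associated brain protein, by 0.59. MIG7 rose by 0.72, and TRBC2, a T-cell receptor constant region whose near-identical copy TRBC1 could share its signal, by 0.45. PEG10, a gene of retrotransposon origin, fell by 0.63, CDR2 by 0.55, PDLIM5, a LIM protein of the actin cytoskeleton, by 0.46, and CUL4B, a scaffold of ubiquitin ligases, by 0.43.

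**Figure D4:**
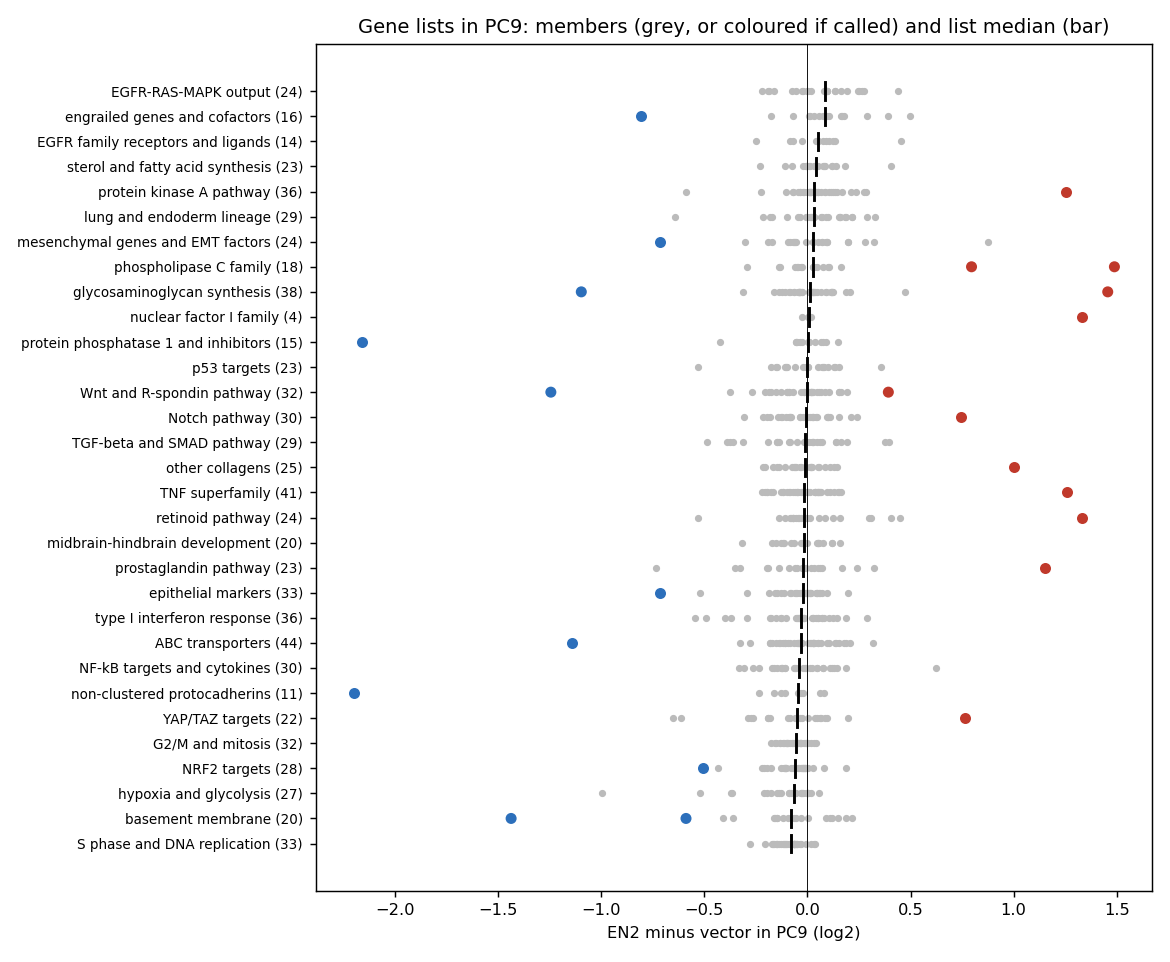
Change with EN2 in PC9 (log2, horizontal axis) of each member of 31 gene lists, with the number measured in brackets; grey points were not called, red and blue points were called higher or lower, and black bars are list medians. List medians lie between −0.081 and 0.087, and no list holds more than 2 called genes.

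Of the 31 lists, 12 held no called gene, EGFR-RAS-MAPK output among them. Over all genes 0.367% were called, so an empty list of this size is the usual outcome and is no result about its pathway. For S phase and DNA replication (33 genes, median −0.081) and for G2/M and mitosis (32 genes, median −0.057) no gene had even an unadjusted limma p below 0.05. The counts below that unadjusted level were 2 of 27 for hypoxia and glycolysis (median −0.064), 1 of 23 for p53 targets (−0.0024), 5 of 36 for the type I interferon response (−0.029) and 1 of 30 for NF-kB targets (−0.040). They were 4 of 29 for TGF-beta and SMAD (−0.012), 1 of 23 for sterol and fatty acid synthesis (0.042), 5 of 29 for lung and endoderm lineage (0.030), 2 of 20 for midbrain-hindbrain development (−0.018) and 2 of 14 for EGFR family members (0.050). Over all genes 1232 of 18244 were below it. Examples with the smallest p were IFIT5, an interferon-induced RNA-binding protein, at −0.55 (limma adjusted p = 0.11), GATA6, an endoderm factor, at −0.64 (limma adjusted p = 0.228), and ACSS2, which makes acetyl-CoA, at 0.41 (limma adjusted p = 0.091).

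Side by side with A549, where 287 genes were called higher (1.57%) and 209 lower (1.15%), 496 in all (2.72%), 20 of the 67 PC9 genes were called too, 29.9% of the PC9 calls and 4.03% of the A549 calls. Of these, 16 changed in the same direction. They were PLCB1, RBP4, PRKAR2B, MPP1, RGCC, HES1, FSTL1 and DKK1 upward and ABCG2, PAPSS2, ABTB3, AKR1B15, AKR1B10, THSD7A, PDLIM5 and COL4A6 downward. ABCG2 fell in both lines, by 1.14 in PC9 and 1.09 in A549, and HES1 rose by 0.74 and 0.94. FN1, TFPI2, PEG10 and PLCL2 went opposite ways. The A549 means of PLCL2 were 3.83 with EN2 and 4.28 with vector, both below the A549 spike-in background of 4.42. The A549 direction of PLCL2 thus rests on signal at background level. FN1 fell by 0.72 in PC9 and rose by 1.37 in A549.

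The difference between the lines was tested as an interaction, and it was called for 143 genes (0.784%), among them 26 of the 67. For PCDH7 the A549 change was −0.046 and the difference −2.15 (limma adjusted p = 0.00181). For PPP1R14C the A549 change was 0.031 and the difference −2.19 (limma adjusted p = 0.00089). PXYLP1 changed by −0.029 in A549 (difference 1.49, limma adjusted p = 0.00132) and NFIX by −0.01 (difference 1.34, limma adjusted p = 0.0176). TNFSF15 changed by −0.033 in A549 (difference 1.29, limma adjusted p = 0.00997). Its A549 means were 3.80 with EN2 and 3.84 with vector, both below the A549 spike-in background of 4.42. The flat A549 change of TNFSF15 was thus read at background level. COL4A6 fell in both lines but by more in PC9 (difference −0.99, limma adjusted p = 0.00515). Its neighbour COL4A5 changed by −0.034 in A549, and its difference of −0.55 was not called (limma adjusted p = 0.0522). For MEIS2 the A549 change was −0.011 and the difference −0.80 (limma adjusted p = 0.031). For 27 PC9 genes neither the A549 change nor the difference was called, so those genes are not shown to be particular to PC9.

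**Figure D5:**
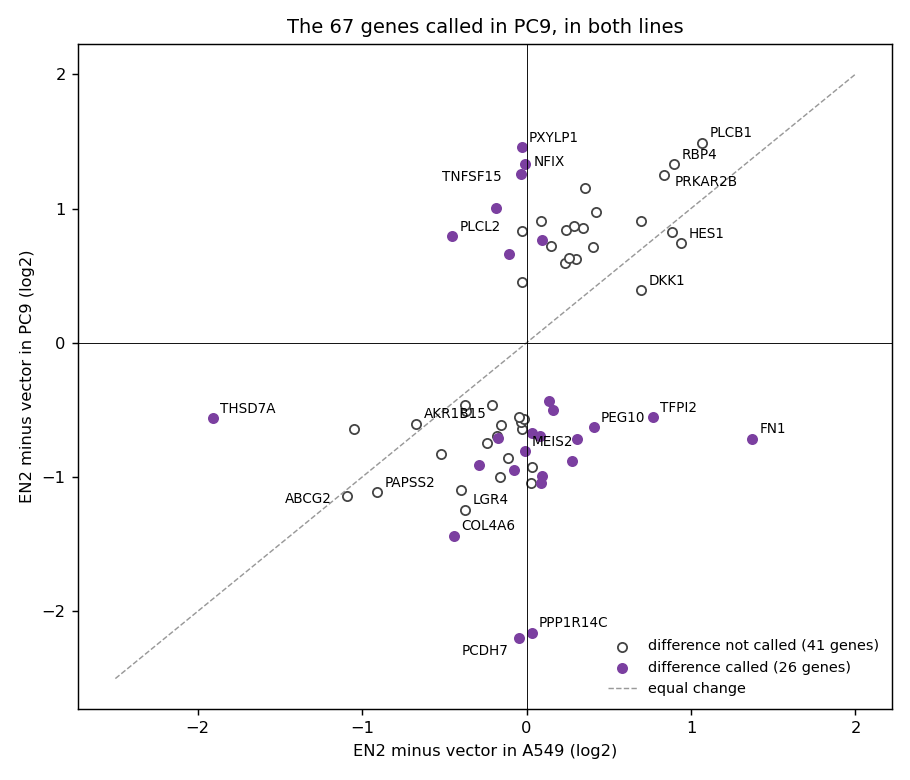
Change with EN2 (log2) of the 67 genes called in PC9, in PC9 (vertical axis) against A549 (horizontal axis), with a dashed line of equal change. Filled purple points are the 26 genes whose change differed between the lines and open points the other 41; PCDH7, PPP1R14C, PXYLP1 and NFIX lie near 0 on the A549 axis, and FN1 lies at −0.72 in PC9 and 1.37 in A549.

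How firmly single genes can be read varied. With each PC9 array left out in turn, 10 of the 67 kept their call every time, namely PXYLP1, RBP4, TNFSF15, TSPAN3, TACC1, DMXL2, CHST11, COL4A6, PPP1R14C and PCDH7. Another 32 kept it in 1 to 3 of the 4 fits and 25 in none. No change turned direction, and none moved by over 1.5 times. RBP4 lost its call in the fit of the PC9 arrays alone, and 9 of the 67 genes kept theirs under every setting. 4 genes with a mean change of at least 2-fold were not called, namely S100A8 (−1.58), SLITRK6 (−1.10), PHGR1 (−1.01) and RGS2 (1.13), which were picked after their values were seen. In S100A8, a calcium-binding protein of myeloid and squamous cells, the EN2 arrays read 4.84 and 5.63 and the vector arrays 5.46 and 8.17, so that the groups overlapped and the fold rests on 1 array.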

How the data were processed

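The files hold 1 table of log2 values for 49495 probe sets on 8 arrays (2 in each of 4 groups); the authors deposited log2 values, which the submitters' processing notes tie to RMA (array normalisation and probe set summary). Its version, the annotation behind it, and whether the 8 arrays went through it together were not given in the sources used. A probe set was named through the platform annotation: 45284 carry 1 symbol, 1333 several and 2878 none, and only the first were used. The probe set with the highest mean over the 8 arrays stood for each of 18244 genes. All 8 arrays entered 1 linear model with a mean for each group (limma 3.58.1, R 4.3.3, eBayes with a trend, 4 residual degrees of freedom), and p-values were adjusted over all 18244 genes by Benjamini-Hochberg; "called" means adjusted p below 0.05. Changes are EN2 minus vector on the log2 scale; the difference between lines is the interaction of the same model. Array number, 2 a group, limits the precision; RMA compresses low signals.

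The members and the gene lists were chosen with earlier results of these data known, so a list's count and median are descriptions beside those of all genes. Of the 67 called genes 1 is not reported here by name and the others all are; further names follow a rule: EN2, the list members with the smallest p, and the 6 highest and 6 lowest differences between lines. Other list members that are named without a call (CDH1, VIM or EGFR, for example) were picked as familiar genes after their values were seen. The main fit did not pair the arrays by replicate number. The replicate differences of EN2 and vector correlated at 0.0656 over all genes in PC9. That value cannot show whether part of the genes shift with replicate number, and A549 was not checked. The pipeline was tested on simulated data, and 15 other settings were run.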

Additional observations from a re-analysis of the deposited data

Results flagged for a closer look

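These genes changed differently with EN2 in PC9 and in A549 by the interaction test of limma, and each value is the PC9 change minus the A549 change on the log2 scale. Genes that fell in PC9 with a difference below 0 included PPP1R14C (−2.19), PCDH7 (−2.15), FN1 (−2.09) and TFPI2 (−1.33). Further ones were TENM3 (−1.16), DMXL2 (−1.13), NCOA7 (−1.08), PEG10 (−1.04) and DSC2 (−1.02). COL4A6 (−0.99), TACC1 (−0.87), MEIS2 (−0.80), FRAS1 (−0.78) and CDIN1 (−0.70) followed. The smallest in size were NUDT4 (−0.66), TSPAN3 (−0.62), CUL4B (−0.57) and LIPA (−0.53). THSD7A fell in both lines with a fitted difference of 1.34, but its PC9 EN2 arrays were below the spike-in background, so its PC9 fall may be cut short and the size of its difference cannot be read.

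Genes that rose in PC9 with a difference above 0 were PXYLP1 (1.49), NFIX (1.34), TNFSF15 (1.29) and PLCL2 (1.25, with its PC9 vector arrays below background). COL8A1 (1.18), SPINK6 (0.77) and AXL (0.67) had smaller ones. Both A549 means of TNFSF15, of PLCL2 and of SPINK6 were below the A549 spike-in background of 4.42. The remaining genes were not called in PC9, and their differences came with these A549 changes. TFF1, a secreted trefoil peptide, had a difference of −2.35 with an A549 change of 2.68, and GREM1, an antagonist of BMPs, −1.93 with 1.86. SPOCK1 had −1.69 with 1.19, GATA6 −1.49 with 0.85, SAMD9 −1.05 with 0.66 and ADM −1.02 with 0.50. PI3, an elastase inhibitor, had 1.83 with −0.99, ZNF57 1.74 with −1.64, PKIB 1.70 with −2.29 and EHF, an epithelial ETS factor, 1.52 with −2.04.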

How the results depend on the processing

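Of 15 other settings, those that moved the counts of called genes by over 1.5 times were the following, against 27 risen, 40 fallen and 143 line-different genes. With the PC9 arrays alone 7 rose and 16 fell. A limma treat test against a 1.2-fold change called 5 higher, 10 lower and 35 differences. The mean of a gene's probe sets gave 26 lower, and testing every probe set gave 87 lower and 241 different probe sets. With the replicate number as a block, 50 rose, 76 fell and 426 differed, and 66 of the 67 genes kept their call. Whether arrays with the same replicate number were handled together is not known. Leaving out 1 PC9 array gave 7 to 12 higher, 12 to 18 lower and 43 to 46 differences; the counts of risen and fallen genes were 12 and 12 when EN2 replicate 1 was dropped, 10 and 18 for EN2 replicate 2, 8 and 15 for vector replicate 1, and 7 and 12 for vector replicate 2. These fits, like that of the PC9 arrays alone, have fewer arrays by construction. The treat test asks for a larger change by construction, and testing every probe set counts probe sets instead of genes. For the other settings the cause was not tested. Quantile normalisation kept 58 of the 67 calls, a constant prior 56 and the mean of probe sets 41. The fit of the PC9 arrays alone kept 20 of the 67, and the treat test kept 15. No called gene turned direction. Among genes not called, ZNF57 read −0.043 and GREM1 0.0062 with the mean of probe sets. With 1 array left out, GREM1 ranged from −0.33 to 0.20, NFIA from −0.099 to 0.13, NFIB from −0.088 to 0.038 and NFIC from −0.047 to 0.050. Over the named genes 338 of 1993 repeated results lost their call and 13 gained one, and 26 of 465 list medians moved by more than the spread between replicates. EN2 was called under none of the settings. With 4 residual degrees of freedom and 2 arrays a group, changes near the median SE of 0.095 cannot be detected. In PC9, PLCB1, PLCL2 and THSD7A rest on signals below background in 1 group.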
